A study of Mus musculus with 10 samples.

Results

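DNA damage response and repair genes were followed in fibroblasts, the connective tissue cells that make matrix, from mouse lung and ear. The list held 47 genes named for their roles in damage signalling and repair, and their level was the TPM summed over all transcripts of a gene. TPM is a length-corrected share of the transcripts in a library. All 47 were among the 22517 genes summed, and all were among the 13181 genes tested, which reached at least 1 TPM in at least 2 libraries. RNA had been sequenced from cells that the labels call post-mortem, in 2 lung libraries at 12 h, 2 lung libraries at 0 h, 3 ear libraries at 12 h and 3 ear libraries at 0 h. The comparisons were 12 h against 0 h within each tissue, the difference between those 2 effects, and lung against ear at each time. No label gives strain, age, culture passage or whether libraries of a group came from separate animals, so every p measures the spread between these libraries, which may be technical.

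Cells meet broken or altered DNA with signalling kinases that halt the cell cycle and with several repair routes. Double-strand breaks are joined end to end or copied from a sister chromatid by homologous recombination, a route used mainly after DNA has been replicated. Damaged bases are cut out by base excision, bulky lesions by nucleotide excision, copying errors by mismatch repair, and cross-links between strands by the Fanconi anaemia pathway. Many genes of recombination and of the Fanconi pathway are known to be transcribed most in dividing cells, whereas much of excision repair and end joining serves resting cells too.

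The libraries differed in makeup and in proliferation. A list of 12 fibroblast markers summed to 3660 to 6861 TPM in lung libraries, against 11731 to 14942 TPM in ear libraries. Its members did not all follow the sum. S100a4 was at 542 to 864 TPM in lung and 1922 to 8381 TPM in ear. Col1a1, at 470 to 1242 and 373 to 756 TPM, and Vim, at 1239 to 2794 and 2109 to 2998 TPM, overlapped between the tissues. A list of 10 macrophage markers summed to 5233 to 16355 TPM in lung libraries, highest in lung 12 h number 2, against 25.2 to 54.3 TPM in ear libraries. Epithelial markers summed to 10.6 to 40.1 TPM in lung and 0.747 to 3.82 TPM in ear, and all 5 lymphocyte markers were under 1 TPM in every library. Within the epithelial list, Krt5 and Krt14 reached at most 0.102 and 0.272 TPM in lung but 0.565 and 2.06 TPM in ear. Skeletal muscle markers reached 50.3 to 211 TPM in the ear 12 h libraries and lay between 4.27 and 15.8 TPM in the other 7. Endothelial markers summed to 13.4, 6.54 and 14.9 TPM at ear 12 h and 4.10, 3.76 and 2.06 TPM at ear 0 h, and to 4.85 and 9.29 TPM at lung 12 h and 4.43 and 3.28 TPM at lung 0 h. The part of these markers in the ear comparison over time was not tested. Fewer cells of a type and less RNA per cell cannot be told apart in such bulk samples, and the part of cell makeup in any difference between lung and ear was not tested. A list of 15 S-phase genes summed to 241 and 867 TPM at lung 12 h, 699 and 557 TPM at lung 0 h, 254, 786 and 534 TPM at ear 12 h, and 465, 700 and 841 TPM at ear 0 h. The number 1 libraries of lung 12 h and ear 12 h therefore stood below the others, and 15 mitosis genes followed the same order at that end, with 101 TPM and 129 TPM there against 407 to 836 TPM in the other 8 libraries.

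The 47 genes were expressed at low to moderate levels. Averaged over the 10 libraries, 11 lay under 5 TPM, 27 between 5 and 20 TPM, 7 between 20 and 100 TPM and 2 above 100 TPM, and 43 were at 1 TPM or more in every library. The genes were grouped by repair route, and the member with the highest mean of each route is described with all its values.

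Among 6 damage signalling genes, mean levels over the 10 libraries ran from 2.85 TPM for Atm and 3.26 TPM for Atr, the kinases that sense breaks and stalled replication, to 24.1 TPM for Chek2, a checkpoint kinase that Atm activates. Chek2 was at 17.6 and 36.8 TPM at lung 12 h, 31.6 and 19.7 TPM at lung 0 h, 13.2, 25.2 and 15.0 TPM at ear 12 h, and 9.56, 35.8 and 36.9 TPM at ear 0 h. These groups overlapped throughout, and libraries of one group differed by more than the group means did. Transcripts annotated as coding with both ends found held 19.3% of the Chek2 TPM. On those, Chek2 was at 1.61 to 6.79 TPM and Rnf8 at 8.63 to 12.4 TPM, so the rank of Chek2 depended on the transcripts summed. Rnf8, a ubiquitin ligase that marks chromatin around breaks, averaged 12.7 TPM, Trp53bp1, which encodes the break-binding protein 53BP1, 10.2 TPM, and Chek1, the checkpoint kinase downstream of Atr, 7.56 TPM.

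Homologous recombination was represented by 10 genes. Mre11a, the nuclease subunit of the complex that Rad50 and Nbn complete, had the highest mean. It was at 16.7 and 39.0 TPM at lung 12 h, 23.1 and 34.1 TPM at lung 0 h, 17.7, 42.7 and 28.3 TPM at ear 12 h, and 35.7, 26.6 and 50.9 TPM at ear 0 h. Its groups overlapped, with the number 1 libraries of both tissues lowest at 12 h. Transcripts annotated as coding with both ends found held 31.9% of the Mre11a TPM, and on those it was at 6.08 to 12.5 TPM. Nbn averaged 10.1 TPM and Rad50 6.22 TPM. Brca1, Palb2 and Brca2, which act in a chain to load the recombinase, averaged 5.78, 6.59 and 1.15 TPM. The recombinase paralogs Xrcc2 and Xrcc3 averaged 17.6 and 4.06 TPM, the DNA translocase gene Rad54l 3.24 TPM, and Rad52, whose yeast counterpart anneals single strands, 9.23 TPM.

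With every transcript summed, the 5 end-joining genes were steadier. Xrcc4, the partner of the end-joining ligase Lig4, was at 13.4 and 12.6 TPM at lung 12 h, 11.7 and 11.4 TPM at lung 0 h, 16.0, 18.8 and 16.1 TPM at ear 12 h, and 16.4, 15.2 and 13.3 TPM at ear 0 h. The lung libraries lay below the ear libraries, except that lung 12 h number 1 was just above the lowest ear library. Transcripts annotated as coding with both ends found held 51.2% of the Xrcc4 TPM. On those, Xrcc4 was at 4.84 to 8.10 TPM in lung and 6.86 to 10.4 TPM in ear, so the tissues overlapped. Xrcc5 and Xrcc6, which encode the Ku80 and Ku70 subunits of the ring that binds broken ends, averaged 12.0 and 12.2 TPM. All of the Xrcc5 TPM lay on transcripts coding with both ends found, and its mean was above every Xrcc4 value on those. The rank of Xrcc4 thus depended on the transcripts summed. Lig4 averaged 2.23 TPM and Prkdc, the large kinase that Ku recruits, 1.36 TPM.

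Base excision repair held 9 genes. Apex1, the endonuclease that cuts at sites that have lost their base, was at 118 and 120 TPM at lung 12 h, 139 and 160 TPM at lung 0 h, 139, 143 and 150 TPM at ear 12 h, and 168, 137 and 156 TPM at ear 0 h. The 2 lung 12 h libraries were below the other 8, and the other 3 groups overlapped. Transcripts annotated as coding with both ends found held 26.8% of the Apex1 TPM. On those, lung 12 h was at 29.2 and 42.0 TPM and the other libraries at 32.0 to 44.2 TPM, so lung 12 h was not set apart. Parp1, a break sensor that makes poly(ADP-ribose), averaged 37.1 TPM and Polb, the gap-filling polymerase, 23.9 TPM. Xrcc1, the scaffold of single-strand break repair, its partner ligase Lig3, and Parp2 averaged 15.95, 12.7 and 12.8 TPM. Of the glycosylases, which remove damaged bases, Ogg1 averaged 13.2 TPM, Mutyh 4.24 TPM and Ung 3.31 TPM.

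Nucleotide excision repair, with 11 genes, included the most abundant gene of the list. Ddb1, an adaptor of ubiquitin ligases that also recognises ultraviolet lesions together with Ddb2, was at 206 and 253 TPM at lung 12 h, 222 and 251 TPM at lung 0 h, 283, 261 and 219 TPM at ear 12 h, and 304, 237 and 208 TPM at ear 0 h. The 4 groups overlapped. Ddb2 itself averaged 8.19 TPM, and the damage recognition genes Xpc and Xpa 5.60 and 13.8 TPM. The incision nuclease genes Ercc1, Ercc4 and Ercc5 averaged 30.9, 5.35 and 9.23 TPM, the helicase genes Ercc2 and Ercc3 8.41 and 19.1 TPM, Gtf2h4, another subunit of the same transcription factor complex, 21.1 TPM, and Ercc6, which couples repair to transcription, 4.15 TPM. Of the 3 Fanconi genes, Fanca, part of the core ligase, was at 9.77 and 12.0 TPM at lung 12 h, 13.1 and 10.9 TPM at lung 0 h, 13.3, 15.9 and 12.4 TPM at ear 12 h, and 11.0, 13.8 and 12.4 TPM at ear 0 h. The groups overlapped. Fancd2 and Fanci, which form the clamp that the core ligase modifies, averaged 3.33 and 6.05 TPM. Transcripts annotated as coding with both ends found held 25.8% of the Fanca TPM. On those, Fanca was at 0.863 to 4.85 TPM and Fanci at 0.943 to 6.33 TPM, so the rank of Fanca depended on the transcripts summed.

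**Figure D1:**
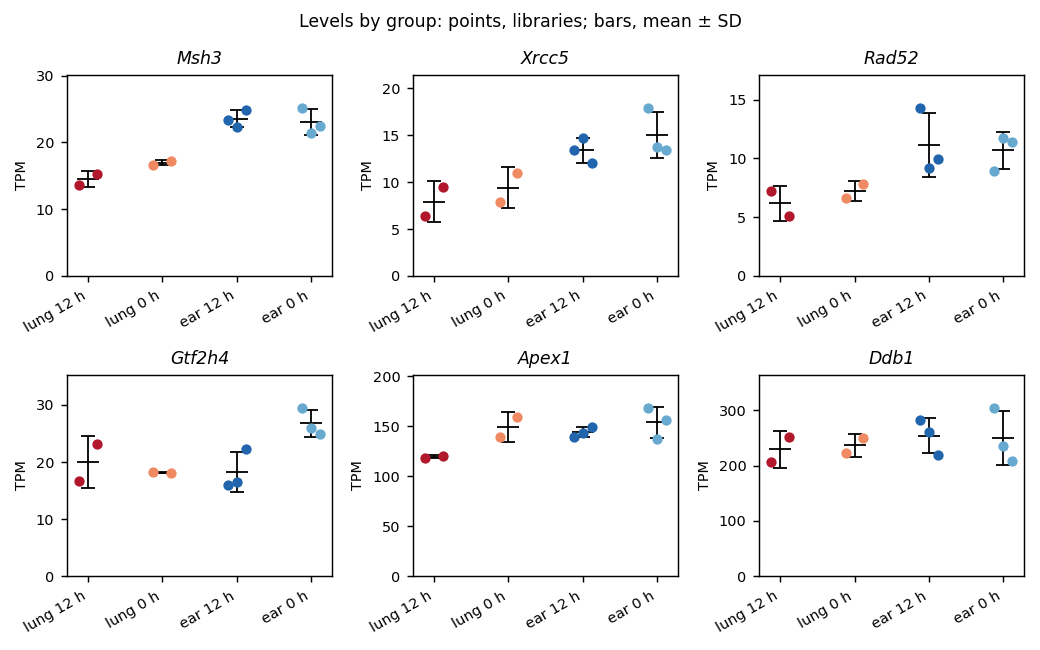
TPM of 6 repair genes in each library of lung 12 h, lung 0 h, ear 12 h and ear 0 h, with the mean and SD of each group as bars. Msh3 is the only one of the 6 past the threshold in a contrast, with 13.7 and 15.3 TPM at lung 12 h against 22.4 to 24.9 TPM at ear 12 h, and the ranges of Ddb1 overlap in all 4 groups.

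Time after death was compared first. In ear, limma called 0 of the 47 genes at 12 h against 0 h at an adjusted p of 0.05, and it called 0 of all 13181 genes tested, or 0.0%. At an unadjusted p under 0.05, 1 repair gene and 219 of all genes passed. The median log2 fold change of the 47 was -0.10, with 34 below 0 and 13 above, beside a median of 0.03 over all genes tested. That gene, Gtf2h4, was at 16.0, 16.5 and 22.3 TPM at ear 12 h and 29.4, 26.0 and 24.9 TPM at ear 0 h. Every ear 12 h library was below every ear 0 h library, but the difference did not pass adjustment over all genes (log2 fold change -0.54, SE 0.182, adjusted p = 1.0). On complete coding transcripts, those annotated as coding with both ends found, Gtf2h4 was at 10.3, 10.3 and 9.99 TPM at ear 12 h and 12.6, 9.93 and 10.1 TPM at ear 0 h, where the groups overlapped (log2 fold change -0.07). Fanci and Fancd2 had the largest estimates in ear, -0.73 and -0.79, with SEs of 0.406 and 0.450.

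In lung, limma called 0 of the 47 genes at 12 h against 0 h, where 0.00759% of all genes tested were called. At an unadjusted p under 0.05, 0 repair genes and 526 of all genes passed. The median of the 47 was -0.13, with 28 below 0 and 19 above, against -0.01 over all genes, and estimates ran from -0.88 for Chek1 to 0.51 for Xpa. The median depended on 1 library: without lung 12 h number 1 it was 0.14, and without lung 12 h number 2 it was -0.30. Lung 12 h number 1 was the lowest of the 10 libraries for 29 of the 47 genes, where it was the lowest for 21.1% of all genes tested.

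The difference between the lung and ear time effects was tested as an interaction. Limma called 0 of the 47 genes, as it did 0.0% of all genes, and at an unadjusted p under 0.05 it passed 1 repair gene, Gtf2h4, and 387 of all genes. For Gtf2h4 the interaction was 0.65 (SE 0.288, adjusted p = 1.00), and it was -0.17 when only complete coding transcripts were summed. The 85 other repair genes measured, a wider list of the same routes and of translesion synthesis, likewise had 0 genes called in ear, lung or the interaction, and 1, 1 and 0 at an unadjusted p under 0.05. SEs of a log2 fold change were 0.131 to 0.554 in ear and 0.161 to 0.679 in lung. Gtf2h4 in ear, at -0.54 with an SE of 0.182, was not called, so changes well above these errors could have been missed.

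**Figure D2:**
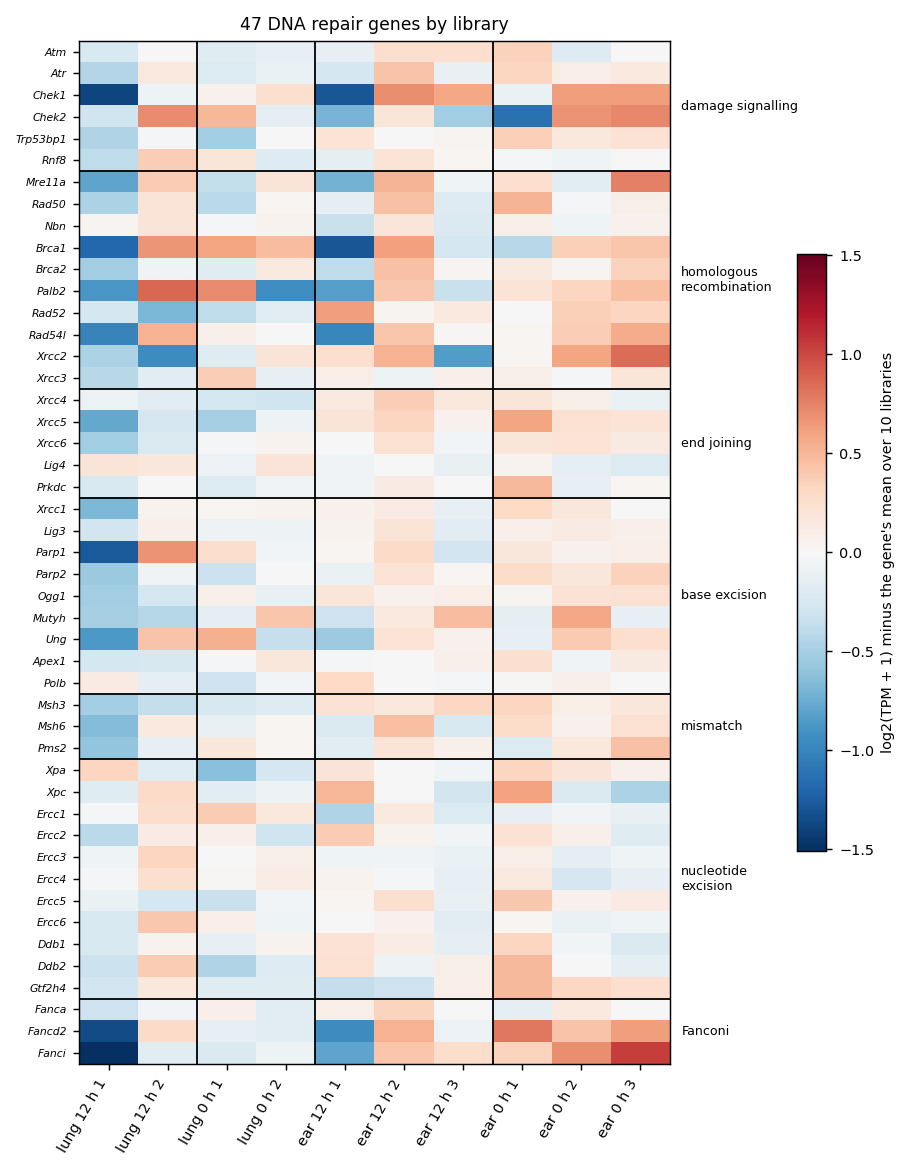
Each row is 1 of the 47 repair genes by route and each column 1 library, ordered lung 12 h, lung 0 h, ear 12 h, ear 0 h, with colour giving log2(TPM + 1) minus the mean of the gene over the 10 libraries. The column of lung 12 h number 1 holds the lowest value in 29 of the 47 rows and the highest in 0 of them.

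Lung and ear were then compared at each time. At 0 h, limma called 0 of the 47 genes, against 11.3% of all genes tested, of which 6.11% were higher and 5.17% lower in lung. At an unadjusted p under 0.05, 5 of the 47 and 3281 of all genes passed. At 12 h, limma called 1 of the 47, lower in lung, against 17.2% of all genes, 8.08% higher and 9.13% lower. The unadjusted counts at 12 h were 5 of the 47 and 4146 of all genes. The shares called among the repair genes were thus below those of all genes at both times. The median log2 fold change was -0.24 at 12 h, beside -0.14 over all genes, and -0.19 at 0 h, beside -0.08. At each time 36 of the 47 estimates were below 0, where 7715 of all 13181 genes tested were at 0 h and 8048 at 12 h. At 12 h the lean of the 47 depended on single libraries. The median was near 0 without lung 12 h number 1 (-0.0022), a fit with 1 lung library at 12 h. It reached -0.46 when another library was dropped instead.

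The gene called at 12 h was Msh3, which encodes the mismatch repair protein that recognises small loops of unpaired bases. Msh3 was at 13.7 and 15.3 TPM at lung 12 h, against 23.3, 22.4 and 24.9 TPM at ear 12 h, and at 16.7 and 17.2 TPM at lung 0 h, against 25.2, 21.4 and 22.5 TPM at ear 0 h. Every lung library lay below every ear library at both times. The log2 fold change at 12 h was -0.66 (SE 0.152, limma adjusted p = 0.0165), and at 0 h it was -0.42 (SE 0.152, adjusted p = 0.119). Its spread within groups was the smallest of the list, with an SD of 0.0913 on the log2 scale. The other 2 mismatch genes, Msh6, whose protein recognises single mismatches, and Pms2, a nuclease subunit, had log2 fold changes at 12 h of -0.26 and -0.39 that did not pass, and that of Msh6 was 0.15 without lung 12 h number 1. The call on Msh3 was lost without lung 12 h number 1 (-0.59, adjusted p = 0.0665) and without ear 12 h number 3 (-0.62, adjusted p = 0.0620).

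Most of the Msh3 signal did not come from a full coding transcript. Over the 10 libraries, 90.02% of its TPM lay on Msh3-209, a transcript of 1818 bases annotated as a target of nonsense-mediated decay, and 8.93% lay on transcripts with a complete coding sequence. Msh3-209 covers the 5′ end of the gene, at chr13:92346520-92354985 on GRCm38. Summed over complete coding transcripts, Msh3 was at 0.977 and 1.69 TPM at lung 12 h, 1.18 and 1.94 TPM at lung 0 h, 1.91, 1.97 and 2.02 TPM at ear 12 h, and 2.58, 1.98 and 1.84 TPM at ear 0 h. Lung 12 h stayed below ear 12 h on that measure, but the difference did not pass (log2 fold change -0.36, adjusted p = 0.293). The gene (ENSMUSG00000014850.15) spans chr13:92211872-92355003 on the minus strand.

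Short of the threshold at 12 h, the Ku genes and Rad52 and Ogg1 had the next smallest p values, and these genes were chosen after their values were seen. Xrcc5 was at 6.37 and 9.49 TPM at lung 12 h and 13.4, 14.8 and 12.1 TPM at ear 12 h, with no overlap (log2 fold change -0.71, SE 0.229, adjusted p = 0.0636). At 0 h, Xrcc5 was at 7.86 and 10.9 TPM in lung and 17.9, 13.7 and 13.5 TPM in ear, also without overlap (-0.63, adjusted p = 0.120). With upper-quartile scaling and with quantile normalization Xrcc5 passed at 12 h (adjusted p = 0.0350 and 0.0419). Its partner Xrcc6 was at 8.07 and 10.2 TPM at lung 12 h and 12.2, 14.4 and 11.8 TPM at ear 12 h, where the groups did not overlap either (-0.44, adjusted p = 0.107). All of the Xrcc5 TPM and 95.2% of the Xrcc6 TPM lay on complete coding transcripts.

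Rad52 was at 7.24 and 5.13 TPM at lung 12 h and 14.3, 9.20 and 9.96 TPM at ear 12 h. The groups did not overlap, and ear 12 h number 1 was the highest of the 10 libraries (log2 fold change -0.75, SE 0.238, adjusted p = 0.0601). Ogg1, the glycosylase for oxidised guanine, was at 8.71 and 10.6 TPM at lung 12 h and 14.8, 13.6 and 14.0 TPM at ear 12 h, again without overlap (-0.51, SE 0.166, adjusted p = 0.0645). Complete coding transcripts held 61.7% of the Ogg1 TPM, and on those Ogg1 was at 6.50 and 7.61 TPM at lung 12 h and 8.47, 7.64 and 9.50 TPM at ear 12 h, with the groups nearly touching (-0.24, adjusted p = 0.396). At 0 h, Xpa, Gtf2h4 and Trp53bp1 joined Msh3 and Xrcc5 at an unadjusted p under 0.05, with log2 fold changes of -0.64, -0.53 and -0.50 and adjusted p values of 0.0873, 0.141 and 0.178. On complete coding transcripts, Gtf2h4 and Trp53bp1 had smaller estimates at 0 h, -0.19 and -0.24 (adjusted p = 0.552 and 0.572). Xpa was at 8.40 and 11.3 TPM at lung 0 h and 17.2, 15.6 and 14.4 TPM at ear 0 h, but at 17.2 and 11.8 TPM at lung 12 h and 15.7, 13.5 and 13.1 TPM at ear 12 h, where the groups overlapped.

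Of the 85 other repair genes, limma called 8 lower and 0 higher in lung at 12 h, and 2 lower and 0 higher at 0 h, where it called 17.2% and 11.3% of all genes. Of all genes, 9.13% were called lower and 8.08% higher at 12 h, and 5.17% lower and 6.11% higher at 0 h. Their median log2 fold changes were -0.32 at 12 h, beside -0.14 over all genes, and -0.27 at 0 h, beside -0.08. Of the 85, 69 were below 0 at 12 h and 65 at 0 h, against 8048 and 7715 of all 13181 genes tested. Neither the medians nor the calls of this wider list were checked without single libraries or on complete coding transcripts. Polm, a polymerase that fills gaps during end joining, averaged 2.06 ± 0.165 TPM at lung 12 h and 5.38 ± 0.825 TPM at ear 12 h (SD, n = 2 and 3; log2 fold change -1.06, adjusted p = 0.00463), and its log2 fold change at 0 h was -0.91 (adjusted p = 0.0125). Paxx, an end-joining scaffold that binds Ku, averaged 10.4 ± 1.01 TPM and 20.4 ± 4.23 TPM at lung and ear 12 h (-0.90, adjusted p = 0.0126), with -0.96 at 0 h (adjusted p = 0.0125). Mpg, the glycosylase for alkylated bases, averaged 20.4 ± 4.42 TPM at lung 12 h and 37.5 ± 5.89 TPM at ear 12 h (-0.85, adjusted p = 0.0253).

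Spread between libraries of the same group was uneven across the repair genes. The pooled SD of log2(TPM + 1) within groups had a median of 0.238 over the 47 genes and 0.277 over all genes tested, and 29 of the 47 lay below the all-gene median. At the other end, 11 of the 47 exceeded an SD of 0.5, where 17.5% of all genes did. They were Brca1 at 0.815, Chek1 at 0.787, Palb2 at 0.785, Chek2 at 0.751, Fancd2 at 0.647, Rad54l at 0.632, Parp1 at 0.592, Fanci at 0.580, Mre11a at 0.578, Ung at 0.534 and Xrcc2 at 0.513. Of these 11, 5 are among the 10 recombination genes and 2 among the 3 Fanconi genes. Chek1 and Chek2 are among the 6 signalling genes, and Parp1 and Ung among the 9 base excision genes. None of the 5 end-joining, 3 mismatch or 11 nucleotide excision genes was among them. Whether the routes differ in spread was not tested.

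**Figure D3:**
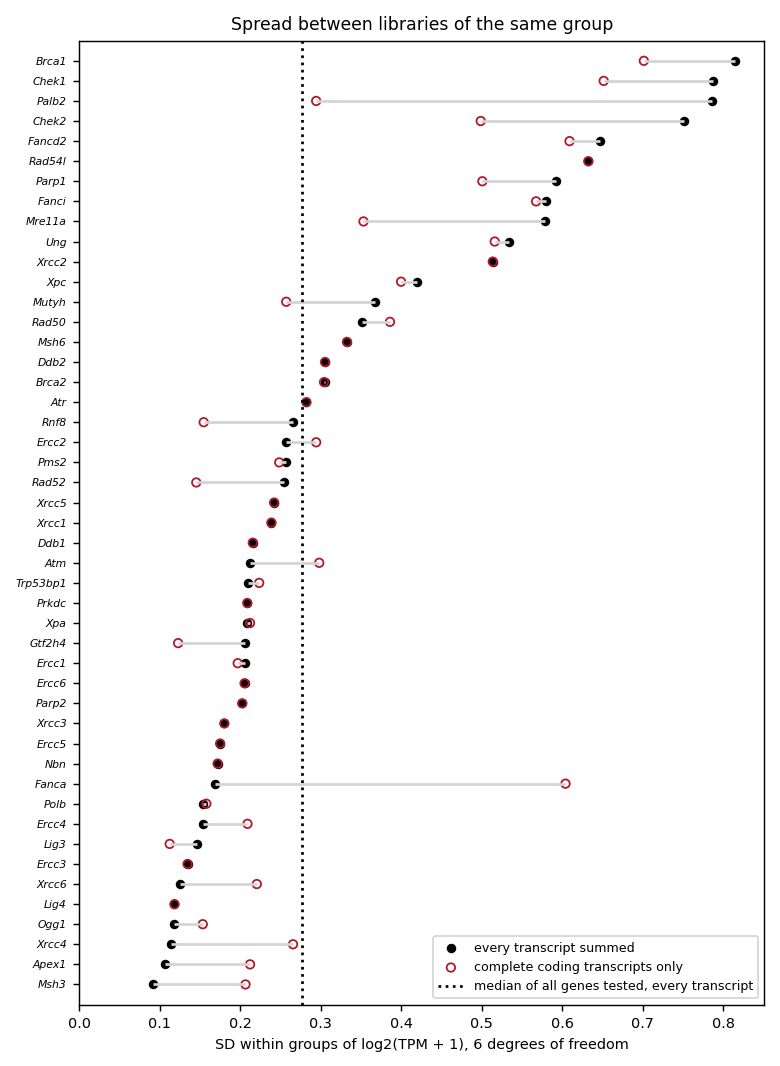
The within-group SD of log2(TPM + 1), pooled over the 4 groups, is plotted for each repair gene with every transcript summed (filled) and with complete coding transcripts only (open), beside the median of all genes tested (dotted line, 0.277). Brca1 is highest at 0.815 and Msh3 lowest at 0.0913, and the open points of Palb2 and Fanca lie far from their filled points.

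For several genes the spread depended on which transcripts were summed. For 9 of the 47 genes the transcript with the most TPM was not a complete coding one. These were Apex1, Chek1, Chek2, Fanca, Gtf2h4, Mre11a and Mutyh, led by coding fragments whose start or end is not annotated, and Msh3 and Palb2, led by decay targets. The leading fragment of Mre11a has 274 bases and held 66.7% of its TPM, that of Chek2 has 328 bases and held 44.1%, and that of Apex1 has 935 bases and held 73.2%. On complete coding transcripts the SD of Palb2 was 0.294, that of Mre11a 0.353 and that of Chek2 0.499, while that of Fanca was 0.604 against 0.169 with every transcript. Those of Xrcc4 and Xrcc6 were 0.265 and 0.220, against 0.113 and 0.125 with every transcript. In 23 of the 47 genes, over 90% of the TPM lay on complete coding transcripts.

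**Figure D4:**
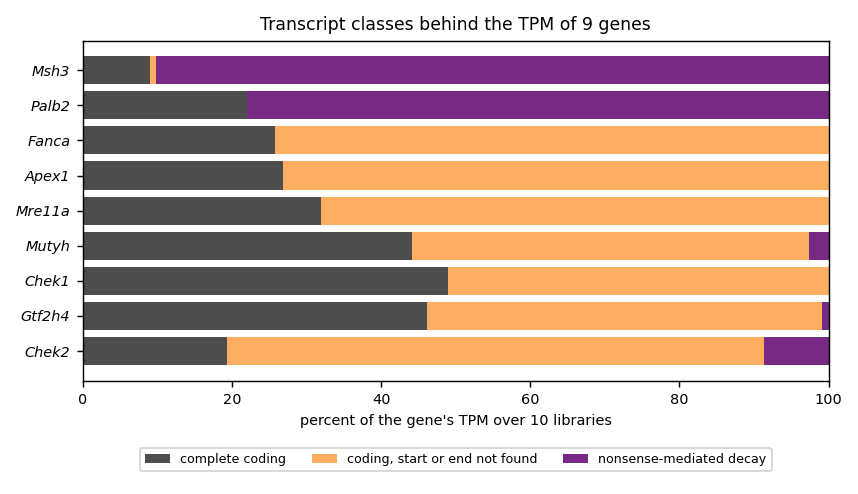
Bars divide the TPM of the 9 repair genes whose leading transcript is not complete coding, over the 10 libraries, into complete coding transcripts, coding fragments with no annotated start or end, and nonsense-mediated decay targets. Msh3 has 90.02% and Palb2 78.0% on 1 decay target each, and Mre11a has 66.7% on a fragment of 274 bases.

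With complete coding transcripts only, 9 of the 47 genes exceeded an SD of 0.5, against 15.3% of all genes, and 8 of them were among the 11 above. The 9 were Brca1, Chek1, Rad54l, Fancd2, Fanca, Fanci, Ung, Xrcc2 and Parp1. On that measure Brca1 was at 0.727 and 4.96 TPM at lung 12 h, 3.00 and 3.86 TPM at lung 0 h, 0.959, 4.82 and 2.62 TPM at ear 12 h, and 3.58, 3.61 and 4.80 TPM at ear 0 h. Rad54l, all of whose TPM is on complete coding transcripts, was at 0.976 and 4.74 TPM at lung 12 h, 3.21 and 2.96 TPM at lung 0 h, 1.01, 4.34 and 3.05 TPM at ear 12 h, and 3.05, 4.17 and 4.89 TPM at ear 0 h. Fanci was at 0.943 and 3.45 TPM at lung 12 h, 3.56 and 3.81 TPM at lung 0 h, 1.57, 6.27 and 3.92 TPM at ear 12 h, and 4.72, 5.59 and 6.33 TPM at ear 0 h. In each of these 3 genes the number 1 libraries of lung 12 h and ear 12 h were the 2 lowest, which are also the libraries with the lowest sums of S-phase and mitosis genes.

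Of the 9 variable genes, 8 had these 2 libraries lowest, Xrcc2 being the exception, with 7.92 TPM in lung 12 h number 2 and 8.61 TPM in ear 12 h number 3. Over the whole list it was 15 of 47, against 5.81% of all genes tested on complete coding transcripts. The genes described here were picked by their spread, so these counts are a description, and the part of proliferation in the spread was not tested. Other repair genes ran against this order. Polb was highest in ear 12 h number 1, at 29.4 TPM, and second in lung 12 h number 1, at 26.0 TPM, and Rad52 and Xpa were also high in at least one of the 2, with 14.3 TPM of Rad52 in ear 12 h number 1 and 17.2 TPM of Xpa in lung 12 h number 1. Leaving out both of these libraries left lung 12 h number 2 alone in its group. The median log2 fold change of lung 12 h against 0 h was then 0.14.

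**Figure D5:**
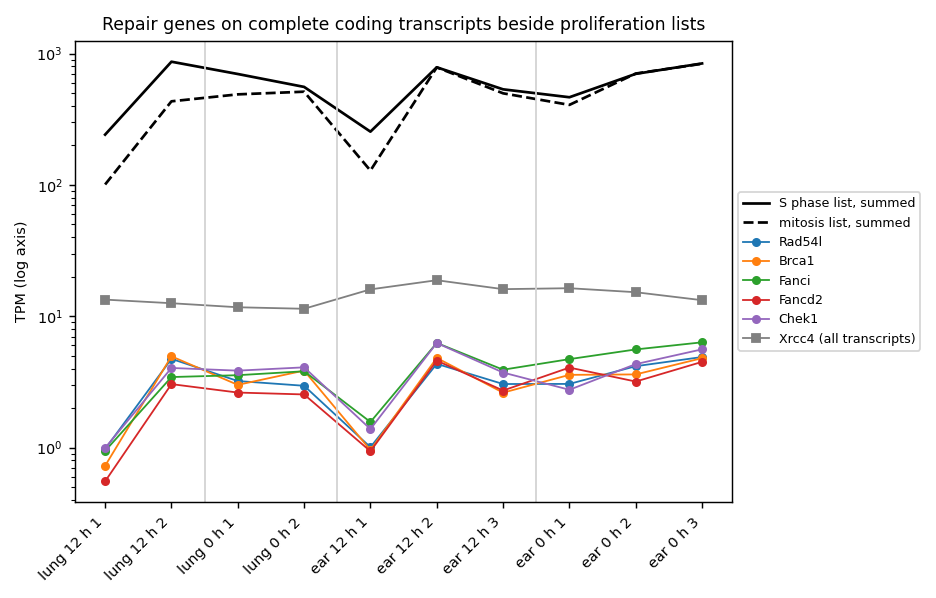
TPM on a log axis in the 10 libraries for 5 repair genes on complete coding transcripts, for Xrcc4 with every transcript and for the summed S-phase and mitosis lists. Lines join libraries only to guide the eye. The 5 genes and both lists are lowest in lung 12 h number 1 and ear 12 h number 1, and Xrcc4 stays between 11.4 and 18.8 TPM. On complete coding transcripts, which are not drawn for it, Xrcc4 ran from 4.84 to 10.4 TPM.

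Promoters of 3 of these variable genes are shown because the genes moved together across libraries. RefSeq sequence of GRCm38.p6 from 250 bases before to 50 bases after the annotated start was used. Capitals mark matches to the GC box GGGCGG, and the E2F words TTTCCCGC, TTTCGCGC, TTTGCCGC and TTTGGCGC were searched as well, each on both strands. E2F factors drive genes of DNA replication, and GC boxes are bound by Sp family factors. Rad54l is at chr4:116123641-116123940, minus strand, Brca1 at chr11:101551906-101552205, minus strand, and Fanci at chr7:79392088-79392387, plus strand.
Rad54l: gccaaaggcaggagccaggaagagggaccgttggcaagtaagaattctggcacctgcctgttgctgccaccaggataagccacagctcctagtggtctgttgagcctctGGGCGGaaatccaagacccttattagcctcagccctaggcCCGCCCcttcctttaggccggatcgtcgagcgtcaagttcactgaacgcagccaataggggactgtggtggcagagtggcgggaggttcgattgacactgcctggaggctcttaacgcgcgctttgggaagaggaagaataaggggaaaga
Brca1: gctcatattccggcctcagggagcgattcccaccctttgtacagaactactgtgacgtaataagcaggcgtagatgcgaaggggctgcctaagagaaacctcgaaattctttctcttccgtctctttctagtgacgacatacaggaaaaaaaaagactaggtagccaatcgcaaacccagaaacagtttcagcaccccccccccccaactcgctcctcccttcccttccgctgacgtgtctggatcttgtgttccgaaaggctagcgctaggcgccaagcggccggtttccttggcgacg
Fanci: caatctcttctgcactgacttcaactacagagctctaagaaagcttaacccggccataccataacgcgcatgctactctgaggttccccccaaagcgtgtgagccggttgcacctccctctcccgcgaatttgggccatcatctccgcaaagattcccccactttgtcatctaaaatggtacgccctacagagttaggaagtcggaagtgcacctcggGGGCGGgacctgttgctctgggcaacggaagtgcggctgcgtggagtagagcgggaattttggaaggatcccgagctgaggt
In these windows Rad54l held 2 GC boxes, Fanci 1 and Brca1 0, and none of the 3 held an E2F word. Rad54l had 2 RefSeq promoters, of which 1 is shown. Only exact words were counted, so stretches that differ from a word by a letter were not, and absence of a word is not absence of a site. Among the variable genes with a RefSeq promoter, 0 of 7 held an E2F word and 5 of 7 held a GC box. Of the 47 genes, 38 had a RefSeq promoter in the table. An E2F word lay in 5 of these 38, or 13.2%, against 2.60% of 27025 genes. A GC box lay in 28 of 38, or 73.7%, against 38.2% of all, and the word TTTGAA, the core of a cell-cycle element, in 2 of 38, or 5.26%, against 20.2%. The 27025 genes were all those with a promoter, whether or not expressed here, so these shares are not matched to the genes tested. Whether they differ from those of other expressed genes was not tested. A match describes the letters only.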

How the data were processed

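Per the file headers and the labels, the authors deposited 1 table of TPM for 61440 transcripts in 10 libraries of lung and ear fibroblasts. RNA was extracted with a kit that recovers DNA and RNA together, per the labels' protocols. The submitters' processing notes name kallisto 0.44.1 and GRCm38. No label says whether libraries kept strand, so reads of overlapping genes cannot be told apart. TPM keeps no depth, so the depth per library is unknown and no counting interval was computed. Transcripts were matched by ID to GENCODE vM21. In all, 60417 matched, and the 1023 others held 0.559% to 0.651% of TPM and were left out. TPM was summed per gene, and genes at 1 TPM or more in 2 or more libraries were tested.

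Values were tested as log2(TPM + 1), which understates changes of low genes, with limma 3.58.1 in R 4.3.3 (4 group means, all 10 libraries, eBayes with trend, 6 residual and 3.23 prior degrees of freedom). Tests were two-sided, with Benjamini-Hochberg adjustment over 13181 genes and a threshold of 0.05. The code of the fit was run on simulated data with independent noise for each gene and library. Those data lacked shifts shared by many genes of a library, so the run does not show how the fit behaves here. Where members share libraries between contrasts, values are given side by side. Complete coding means annotated as protein-coding with both ends found.

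The members and lists were chosen with earlier results of these data known. All 47 members are accounted for. Values in every library are given for each member past the threshold and for the highest of each route, and any other member with such values was chosen after its values were seen. Of other repair genes past the threshold, the 3 with the largest fold changes were named per comparison.

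Deviations from the group mean correlated between same-numbered ear libraries of 12 h and 0 h at 0.453, 0.320 and 0.377. Ear numbers may therefore pair, but the main test used no replicate block. A block within a tissue was run as an alternative. The labels do not say what a number marks. Alternatives were other filters, pseudocounts and scalings, replicate blocks, leaving out libraries, and complete coding transcripts.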

Additional observations from a re-analysis of the deposited data

How the results depend on the processing

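Depth is unknown, and 2 lung libraries per time leave wide errors, so small changes could not have been detected. Re-estimates were summarised for some single members of the list, in comparisons named in the text. Of these, 335 kept their direction and side of the threshold, 5 lost a call, 3 gained one and 5 reversed. The calls on Polm, Paxx and Mpg were not checked this way. The Gtf2h4 interaction was -0.17 on complete coding transcripts. For lung against ear at 12 h, Msh6 ranged from -0.66 to 0.15 and Parp1 from -1.28 to 0.67 when 1 library was dropped, and without both 12 h number 1 libraries they were 0.0348 and 0.68. No scaling moved the all-gene median by over 0.1. The causes of the moves below were not tested.

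The count of genes called for lung 12 h against 0 h, 1 in the main test, was 7 with no filter, 0 at a 5 TPM minimum, 0 with 0.1 as the pseudocount, 0 with the replicate block within a tissue, 0 with the lung numbers crossed and 58 without both 12 h number 1 libraries. The interaction count, 0 in the main test, was 2 with no filter, 1 with upper-quartile scaling, 1 with quantile normalization, 1 on complete coding transcripts and 3 without both of those libraries. Repair genes called for lung against ear at 12 h numbered 1 in the main test. They were 2 with upper-quartile scaling and 2 with quantile normalization (Msh3 and Xrcc5). On complete coding transcripts they were 0, as with the replicate block across tissues. Leaving out both 12 h number 1 libraries left 1 library at lung 12 h. The median log2 fold change of the 47 genes was then 0.14 for lung 12 h against 0 h, 0.20 for the interaction and 0.0348 for lung against ear at 12 h. Msh3 lost its call there too (-0.59, adjusted p = 0.113).

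Replicate numbers shared across tissues carried no stated pairing. Same-numbered lung and ear libraries correlated at 0.261 and 0.256 at 12 h and at -0.193 and -0.0390 at 0 h. With that replicate block, 745 genes were called at 0 h and 1165 at 12 h, and the adjusted p of Msh3 was 0.220. The block within a tissue changed no other call. The same correlation was -0.443 between same-numbered lung libraries.

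Leaving out 1 library at a time, genes called ranged from 0 to 121 for lung 12 h against 0 h, from 0 to 21 for the interaction, from 547 to 1781 for lung against ear at 0 h and from 1355 to 2468 at 12 h. The counts of 121 and 21 came from dropping lung 12 h number 1. Dropping number 1 of lung 0 h gave 547, dropping its number 2 gave 885 at 0 h, and 1355 came from dropping number 2 of lung 12 h. Repair genes called at 12 h ranged from 0 to 2, the 2 being Msh3 and Parp1 when number 2 of lung 12 h was dropped (Parp1 -1.28, adjusted p = 0.0162). Medians of the 47 ranged from -0.30 to 0.14 for lung 12 h against 0 h, from -0.23 to 0.22 for the interaction and from -0.46 to 0.03 for lung against ear at 12 h, with fits without 1 library or both 12 h number 1 libraries counted.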
